A study of Mus musculus with 2 samples.

Results

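The mitochondrial protein import machinery is described here in mouse heart as 40 nuclear protein-coding genes among 55536 annotated mouse genes. Members were taken by gene name alone: the Tomm, Timm, Mtx and Chchd genes whose names go on with a number, together with Samm50, Immt, Pmpca and Pmpcb. Total RNA with ERCC spike-ins, in the mix labelled for stranded libraries with reduced ribosomal RNA, was sequenced from the hearts of 2 female B6CASTF1/J mice aged 36 days. This strain is the first-generation hybrid of C57BL/6J and CAST/EiJ mice, and no treatment or mutation is given. The libraries, numbered replicate 2 (animal 4) and replicate 1 (animal 3), form 1 group with nothing to set it against. They are labelled as biological replicates from separate biosamples that carry a single donor identifier, and were treated as 2 animals.

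Nearly all mitochondrial proteins are encoded in the nucleus, made in the cytosol and carried into the organelle. The TOM complex of the outer membrane holds receptors and the general entry pore, and behind it the routes divide. The SAM complex inserts barrel-shaped outer membrane proteins, the small TIM chaperones escort hydrophobic proteins through the space between the membranes, and the TIM22 complex inserts carriers into the inner membrane. The TIM23 complex passes proteins with a cleavable presequence to the matrix, where the processing peptidase removes it. A disulfide relay traps small cysteine-rich proteins between the membranes, and the MICOS complex shapes the folds of the inner membrane and holds it to the outer one. Heart muscle is among the tissues richest in mitochondria.

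The libraries held 38332179 expected counts in replicate 2 and 39053339 in replicate 1, of which the members took 0.229% and 0.249% of the mouse counts (exact 95% intervals 0.228% to 0.231% and 0.247% to 0.251%). A gene with 0 counts in a library could have a true level of up to 3 counts, equal to 0.0786 CPM in replicate 2 and 0.0772 CPM in replicate 1. These intervals and limits cover counting error only. A share also depends on the other RNA of its library, where mitochondrial transcripts took 31.7% in replicate 2 and 29.2% in replicate 1. The heart label was met by its markers: 6 of 6 cardiomyocyte markers were detected, summing to 27957 TPM in replicate 2 and 28210.2 TPM in replicate 1, and 0 of 3 skeletal muscle markers reached 1 TPM in both libraries. The animals differed in blood and fat markers. The 5 erythroid markers summed to 11355 TPM in replicate 2 and 34697 TPM in replicate 1, and the 3 brown adipocyte markers to 29.7 and 94.6 TPM, in the same order. In whole tissue, fewer cells of a type and less RNA per cell cannot be told apart.

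Of the 40 members, 38 were detected, meaning at least 1 TPM in both libraries, which is 95% against 50.4% of the 21888 nuclear genes with a coding transcript. TPM is a level per transcript length, so it can be compared between genes. The median member stood at 36.5 TPM in replicate 2 and 39.2 TPM in replicate 1. Among the detected members, 32 of 38 lay above 8.73 TPM, the median of all detected nuclear coding genes. The levels spread widely: 7 members were at 100 TPM or more, 25 between 10 and 100 TPM, 6 between 1 and 10 TPM and 2 under 1 TPM. The sum over members was 2831 TPM in replicate 2 and 3046 TPM in replicate 1, and 2 genes, Chchd10 and Chchd2, took 38.8% and 37.4% of it. Both are among 5 members, grouped as other CHCHD proteins, that were taken by name and not assigned to an import complex. The sum is therefore not a level of the import complexes alone.

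**Figure D1:**
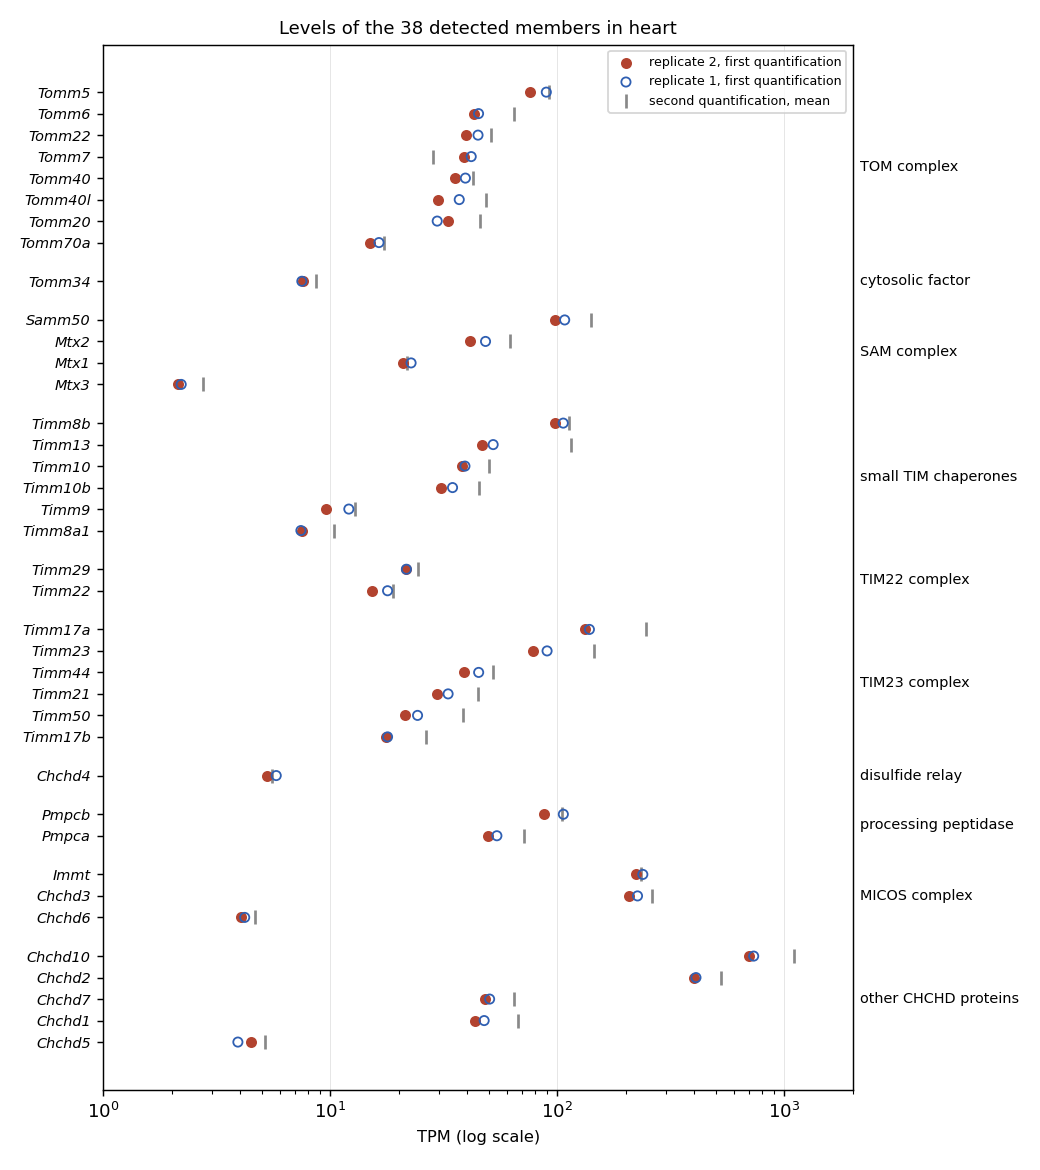
Level of each of the 38 detected members in TPM on a log axis, grouped by role; filled points are replicate 2, open points replicate 1, and grey ticks the mean of a second quantification of the same reads. Chchd10 stands highest at 717 TPM and Mtx3 lowest at 2.17 TPM, and the paired points lie close together beside this range.

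In the TOM complex, the small pore subunit Tomm5 was highest, at 76.0 TPM in replicate 2 and 89.4 TPM in replicate 1. A cluster of 6 genes followed between 31.2 and 43.9 TPM on average: the small subunits Tomm6 (43.9 ± 1.41) and Tomm7 (40.2 ± 2.14), the central receptor Tomm22 (42.1 ± 3.64), the pore gene Tomm40 (37.3 ± 2.90), its relative Tomm40l (33.4 ± 5.04) and the presequence receptor Tomm20 (31.2 ± 2.36; SD, n = 2, as for all levels below). Ordered by level, each pair of neighbours among these 6 differed by less than the larger gap between the replicates of either gene. Tomm70a, the receptor for carrier precursors, was the lowest detected subunit at 15.6 ± 1.04 TPM. Tomm20l, a relative of Tomm20, had 2 counts in replicate 2 and 6 counts in replicate 1, and none of its TPM was assigned to a protein-coding transcript. Tomm34, a cytosolic factor that binds precursors and chaperones, stood at 7.56 TPM in replicate 2 and 7.48 TPM in replicate 1.

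The SAM complex was uneven. Samm50, the barrel that inserts other barrels, had 97.1 TPM in replicate 2 and 108 TPM in replicate 1. Its partners, the metaxins, were lower: Mtx2 averaged 44.8 ± 4.85 TPM, Mtx1 21.8 ± 1.24 TPM and Mtx3 2.17 ± 0.0424 TPM, the lowest level of any detected member. Mtx3 had 70.0% of its TPM in coding transcripts, and the other SAM genes less.

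Among the small TIM chaperones Timm8b was highest, at 97.6 TPM in replicate 2 and 106 TPM in replicate 1, and its partner Timm13 averaged 49.3 ± 3.95 TPM. Timm10 and Timm9, which build a ring together, stood at 38.5 ± 0.912 and 10.8 ± 1.76 TPM, so the RNA of the partners was unequal by more than their spread. Timm10b, a subunit that docks the ring to the inner membrane, averaged 32.6 ± 2.74 TPM. Timm8a1, the mouse counterpart of the human deafness-dystonia gene, was low at 7.47 TPM in replicate 2 and 7.41 TPM in replicate 1. Timm8a2 was at 1 count in replicate 2 and 0 counts in replicate 1, both under the 3 counts that a reading of 0 allows. Of the carrier translocase, the accessory subunit Timm29 had 21.5 TPM in replicate 2 and 21.6 TPM in replicate 1, and the channel subunit Timm22 had 15.3 TPM in replicate 2 and 17.9 TPM in replicate 1.

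In the TIM23 complex, Timm17a, a core subunit, led with 132 TPM in replicate 2 and 138 TPM in replicate 1, against 17.6 and 17.9 TPM of its relative Timm17b. The channel gene Timm23 had 78.4 TPM in replicate 2 and 90.1 TPM in replicate 1. Timm44, which anchors the import motor, averaged 41.8 ± 4.43 TPM, Timm21, which links the complex to the outer pore and to respiratory chain assembly, 31.3 ± 2.42 TPM, and the presequence receptor Timm50 22.7 ± 2.11 TPM. On the matrix side, the catalytic subunit of the processing peptidase Pmpcb averaged 96.9 ± 13.2 TPM and its partner Pmpca 51.7 ± 3.44 TPM. Chchd4, the oxidoreductase of the disulfide relay, was low at 5.27 TPM in replicate 2 and 5.77 TPM in replicate 1.

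Of the MICOS complex, Immt, the large scaffold subunit mitofilin, had 221 TPM in replicate 2 and 238 TPM in replicate 1, and Chchd3 had 206 TPM in replicate 2 and 225 TPM in replicate 1. Their ranges overlapped. Chchd6, a relative of Chchd3, averaged only 4.12 ± 0.106 TPM. The highest members of all were the twin cysteine-motif genes Chchd10 (ENSMUSG00000049422.7, chr10:75933130-75937747 in mm10), which is mutated in some human motor neuron and muscle diseases, and Chchd2 (ENSMUSG00000070493.3, chr5:129881156-129887470), its close relative. Chchd10 had 701 TPM in replicate 2 and 732 TPM in replicate 1, which ranked it 59 among nuclear coding genes, and Chchd2 had 398 TPM in replicate 2 and 408 TPM in replicate 1, at rank 128. Chchd7 averaged 49.0 ± 1.77 TPM, Chchd1, a subunit of the mitochondrial ribosome, 45.4 ± 3.10 TPM and Chchd5 4.19 ± 0.389 TPM.

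Much of the RNA of some members was assigned to transcripts annotated as types other than protein coding. Coding transcripts here are those annotated as protein coding. The median member had 97.0% of its TPM in coding transcripts, against a median of 93.5% over all detected nuclear coding genes, yet 6 of 38 members (15.8%) were under 50%, against 6.93% of all detected genes. A second quantification of the same reads put 8 of 38 members (21.1%) under 50%, against 9.18% of all, and 5 members were under 50% in both. These 5 were Timm21, with 9.61% at first and 8.44% in the second quantification, Mtx2 (21.03% and 14.8%), Mtx1 (21.2% and 46.9%), Samm50 (30.3% and 25.2%) and Chchd10 (39.6% and 47.9%). They include 3 of the 4 SAM genes. Over expected counts, which are not scaled by length, the coding share of 2 members was under 50%, Timm21 at 28.7% and Mtx1 at 34.9%. By this measure Samm50 stood at 65.2%, Chchd10 at 64.5% and Mtx2 at 50.4%. The median coding share of counts was 97.7% over detected members and 97.4% over all detected nuclear coding genes. The share of all genes under 50% by counts was not computed.

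The rest of the TPM of these genes lay in retained introns, processed transcripts and transcripts annotated for nonsense-mediated decay. For Chchd10 it was Chchd10-202, a 405-base transcript annotated as a retained intron, with 426 TPM in replicate 2 and 439 TPM in replicate 1. This transcript took 60.4% ± 0.505 of the gene's TPM and 35.5% ± 0.436 of its counts. For Samm50 the quantifications named different transcripts: the first gave 66.1% ± 0.669 to Samm50-205 and the second gave 62.7% to Samm50-204, both retained introns. For Timm17a the retained intron Timm17a-204 led with 52.8% in the first quantification, and the coding Timm17a-203 with 44.4% in the second. For Timm21 the leader in both was Timm21-206, a processed transcript with 33.1% ± 5.83 and 41.1% of the TPM.

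The quantifications did not place the reads alike. They named the same leading transcript for 26 of 38 members, or 22 of the 34 with more than 1 annotated transcript. A transcript of a type other than protein coding led 7 members in the first, 8 in the second and 5 in both. Among the leaders of the second, Chchd1-205 and Mtx1-205 are annotated for nonsense-mediated decay. Leading transcripts were counted for the members only, so whether these counts are usual among all genes was not tested. Timm13 had 98.3% of its TPM in coding transcripts in the first quantification and 42.4% in the second, Chchd1 97.2% and 41.3%, and Timm50 97.0% and 57.7%. Timm13 was also the member whose level moved most, to 2.33 times its first value, and Tomm7 moved down to 0.706 times. The median ratio of second to first was 1.28 over the detected members and 1.16 over all detected nuclear coding genes.

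**Figure D2:**
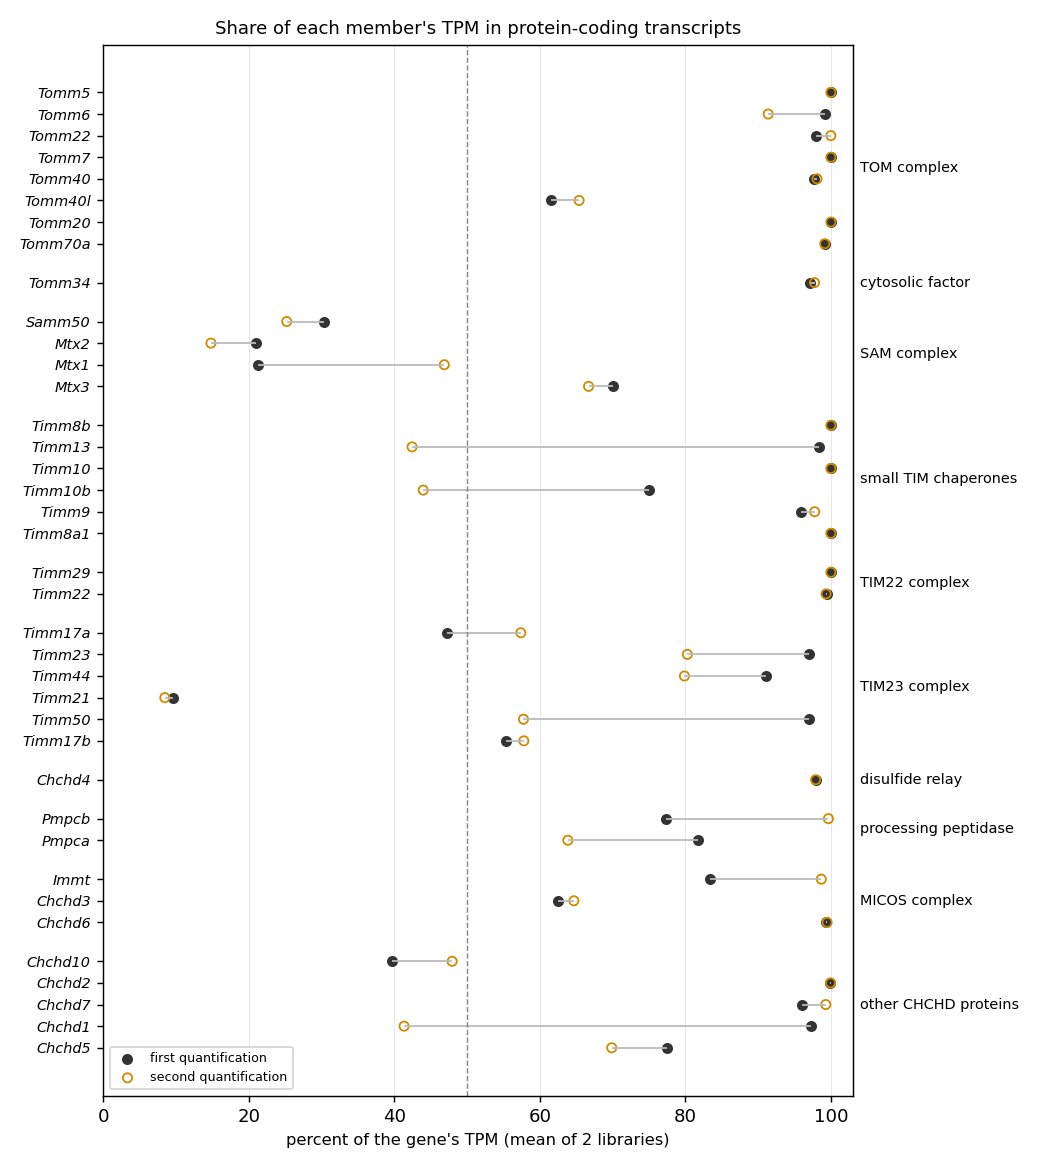
Percent of each detected member's TPM in protein-coding transcripts, as the mean of both libraries, in the first (filled) and second (open) quantification; the dashed line marks 50%. Timm21, Mtx2, Mtx1, Samm50 and Chchd10 lie left of the line in both, and Timm13, Timm10b, Chchd1 and Timm17a cross it between the quantifications.

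In 7 of 8 pairs of related genes the first-named gene held over 50% of the summed TPM in either library. Several pairs were made up almost wholly of 1 gene. Tomm20 took 99.1% ± 0.645 of the pair with Tomm20l, Timm8a1 99.7% ± 0.377 of that with Timm8a2, Chchd3 98.1% ± 0.0683 of that with Chchd6, and Timm8b 93.2% ± 0.410 of that with Timm8a1. Timm17a took 88.4% ± 0.267 of the pair with Timm17b, and Mtx1 90.9% ± 0.310 of the pair with Mtx3. The share of Mtx1 was 75.3% ± 0.732 over coding transcripts and 53.1% ± 2.27 by expected counts.

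A single pair was near balance: Tomm40 took 54.2% in replicate 2 and 51.6% in replicate 1 of the pair with Tomm40l, and in the second quantification 47.0% ± 2.67. Which of these pore genes is higher therefore depended on the quantification, although Tomm40 led in coding transcripts in both (64.0% ± 2.22 and 57.0% ± 2.71). The pair of Chchd2 and Chchd10 also depended on the transcripts counted. Chchd2 took 36.0% ± 0.305 of the pair's whole TPM, and 58.6% ± 0.618 when only coding transcripts were summed, an alternative chosen after the data were seen. In the second quantification the share was 32.1% ± 0.0293 over all transcripts and 49.6% ± 0.905 over coding ones, so Chchd2 led only in the coding transcripts of the first. In the first quantification coding Chchd2 stood at 397 TPM in replicate 2 and 408 TPM in replicate 1, and coding Chchd10 at 275 and 293 TPM, in the same order.

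Partners of 1 complex were seldom equal in the TPM of the first quantification. Among these pairs, only Timm9 and Timm10 kept the same order in every measure. Timm9 took 21.9% ± 2.39 of the pair with Timm10. Pmpcb took 65.1% ± 1.59 of the pair with Pmpca in TPM, and 47.7% ± 1.24 by expected counts, which are not per length. Mtx2 took 67.2% ± 1.13 of the pair with Mtx1, and 47.4% ± 0.797 over the coding transcripts of the second quantification. Timm13 took 32.6% ± 0.467 of the pair with Timm8b in the first quantification and 50.6% ± 0.422 in the second. Chchd4 took 42.3% ± 1.21 of the pair with Gfer, the sulfhydryl oxidase that recharges it, and 70.2% ± 0.295 by expected counts. Over coding transcripts its share was 57.1% ± 0.140 by the first quantification and 38.3% ± 0.742 by the second, so no order of these genes held in all measures.

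**Figure D3:**
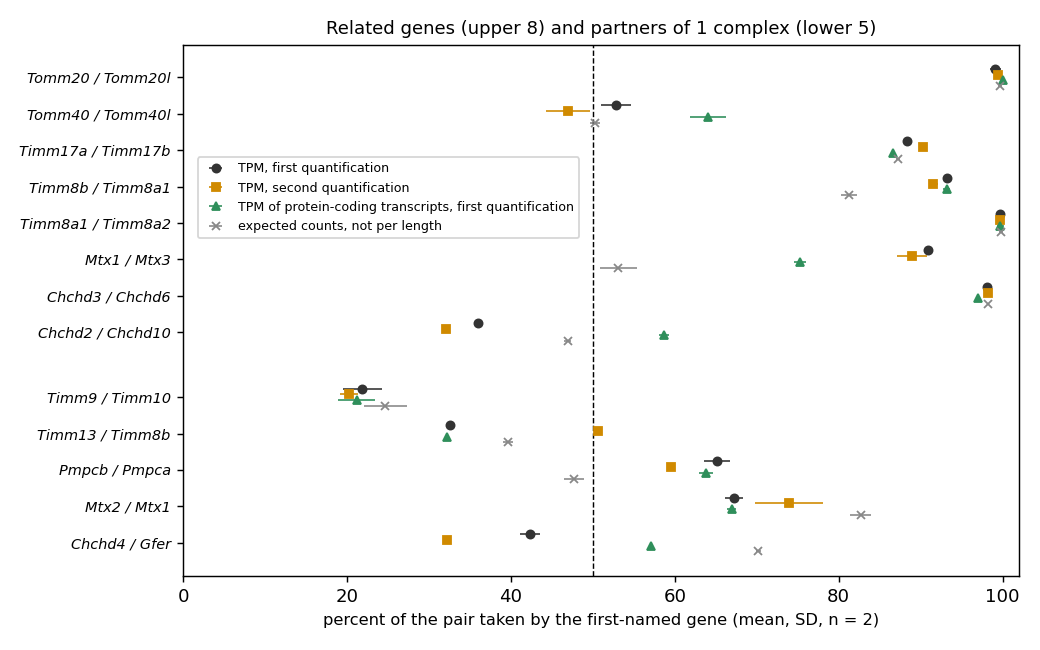
Percent of each pair taken by the first-named gene, as mean and SD over the 2 libraries, for 8 pairs of related genes (upper) and 5 pairs of complex partners (lower), with the measures marked by symbol; the dashed line marks 50%. Tomm40 and Tomm40l lie near the line except for coding transcripts of the first quantification. Chchd2 with Chchd10 lies right of it for those coding transcripts and left of it for the other measures shown.

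Some members have near copies elsewhere in the transcript set that can draw their reads. By alignment at 95% identity or more over at least 200 bases, 6 members had 16 such copies outside their own locus. Gm10273, annotated as protein coding, matched Timm23 at 99.9% over 1121 bases and held 51.3 ± 2.77 TPM, beside 84.2 ± 8.22 TPM of Timm23. The processed pseudogene Gm14494 matched Tomm20 at 99.5% over 435 bases and held 27.4 ± 0.573 TPM, beside 31.2 ± 2.36 TPM of Tomm20. Gm9797 matched Timm8a1 at 100% over 612 bases, with 6.14 ± 1.44 TPM beside 7.44 ± 0.0424 TPM. The second quantification divided these reads otherwise, with 26.5 ± 9.33 TPM for Gm10273 beside 145 ± 14.6 TPM for Timm23. It gave Gm14494 36.6 ± 1.39 TPM beside 45.4 ± 0.428 TPM for Tomm20, and listed Gm9797 at 0 TPM in replicate 2 and 4.19 TPM in replicate 1. The levels of Timm23, Tomm20 and Timm8a1 are uncertain for this reason. The copies of Chchd2, Timm17a and Tomm22 held at most 1.99 TPM. Several members also share bases with genes that overlap them. Pmpca shares 874 identical bases with Inpp5e, which held 5.54 ± 0.0212 TPM, and Tomm40l shares 2119 with Nr1i3, which held 0.015 ± 0.0212 TPM. Such genes at Mtx1, Timm10b, Tomm40 and Tomm6 held at most 0.645 TPM on average in the first quantification.

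The members lie on 19 chromosomes, and 11 of 40 (27.5%) start within 1000 bases of a protein-coding gene on the other strand, against 10.9% of 21938 nuclear protein-coding genes and 16.5% of the detected ones. In 3 of the 11 the transcribed regions overlap at the start. The sources used here do not say whether counting used the strand, so reads of such overlaps may be shared. In the 4 closest pairs the levels were unlike. Timm8b had 97.6 TPM in replicate 2 and 106 TPM in replicate 1, and its neighbour Sdhd, a subunit of respiratory complex II, 250 and 271 TPM in the same order. Timm23 stood beside Parg, an enzyme that removes poly(ADP-ribose), at 7.17 TPM in replicate 2 and 7.92 TPM in replicate 1. Pmpca stood beside Entr1 at 15.6 TPM in replicate 2 and 17.5 TPM in replicate 1. Timm17b stood beside Pqbp1, which binds splicing factors, at 8.06 TPM in replicate 2 and 9.03 TPM in replicate 1.

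The bases between the start sites of the 4 closest such pairs are shown because both genes of a pair begin at their ends. They run 5′ to 3′ on the member's strand and come from RefSeq promoter windows of build GRCm38.p6, with start sites of GENCODE M21. Pmpca and Entr1 lie at chr2:26389317-26389338 (plus strand), Timm17b and Pqbp1 at chrX:7899270-7899356 (plus strand), Timm23 and Parg at chr14:32201899-32201948 (minus strand), and Timm8b and Sdhd at chr9:50603813-50603909 (plus strand). Capitals mark letters of the motifs searched, which are the Sp1 letters GGGCGG or CCGCCC in Pmpca and Timm8b, CCAAT in Timm17b and the ETS letters in Timm23.
Pmpca: gcgGGGCGGggtcggaagcgga
Timm17b: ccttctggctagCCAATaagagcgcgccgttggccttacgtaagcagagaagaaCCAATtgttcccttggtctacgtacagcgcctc
Timm23: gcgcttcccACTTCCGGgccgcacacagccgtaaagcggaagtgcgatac
Timm8b: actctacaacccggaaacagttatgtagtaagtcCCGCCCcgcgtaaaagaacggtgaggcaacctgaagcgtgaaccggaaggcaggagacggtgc

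Promoter windows, 250 bases before to 50 bases after the RefSeq start, were matched for 35 of 40 members. Chchd2, Chchd7, Timm21, Tomm7 and Tomm40l had no entry. Each window was searched on both strands for 7 sets of letters. The ETS letters CCGGAAGT, bound by a family of factors that act at many genes of mitochondria, occurred in 10 of 35 windows (28.6%), against 4.31% of all genes with a window and 9.59% of the detected ones. The Sp1 letters GGGCGG occurred in 45.7% of the members' windows, above the 38.2% of all genes and below the 70.9% of detected genes. The YY1 letters AAGATGGC occurred in 8.57% (3.19% of all and 5.53% of detected genes), the ERR letters AAGGTCA in 11.4% (5.38% and 3.73%) and the NRF1 letters GCGCATGC in 2.86% (3.05% and 6.18%). CCAAT was found in 34.3% of the members' windows (41.1% and 43.1%) and TATAAA in 8.57% (15.7% and 8.48%). The members' windows had a median GC content of 58.7%, against 52.7% over all windows, and the influence of this on the shares was not tested.

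The 10 members with the ETS letters were Chchd5, Mtx2, Mtx3, Pmpcb, Timm10, Timm10b, Timm23, Timm29, Timm8a2 and Tomm70a. Their median level was 27.1 TPM, against 41.8 TPM for the 25 members without them. The 120 bases before the start are shown for Pmpcb at chr5:21737040-21737159, Mtx2 at chr2:74825692-74825811 and Tomm70a at chr16:57121594-57121713, all on the plus strand of GRCm38.p6. They stand for a peptidase, a SAM and a TOM gene, and capitals mark the ETS letters and, in Mtx2 and Tomm70a, the Sp1 letters.
Pmpcb: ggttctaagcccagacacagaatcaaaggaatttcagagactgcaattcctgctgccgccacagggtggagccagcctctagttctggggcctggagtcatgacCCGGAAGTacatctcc
Mtx2: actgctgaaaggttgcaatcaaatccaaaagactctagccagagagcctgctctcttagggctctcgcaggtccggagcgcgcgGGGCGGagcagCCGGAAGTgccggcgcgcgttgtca
Tomm70a: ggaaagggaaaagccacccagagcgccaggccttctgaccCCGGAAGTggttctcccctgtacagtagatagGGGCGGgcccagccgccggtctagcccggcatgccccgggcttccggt
A match describes these letters only, and binding of a factor was not measured.

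The members differed little between the 2 libraries, as did most genes tested. An exact binomial test compared the reads of the 2 libraries, gene by gene, and so allows for counting error alone and says nothing of conditions. At an adjusted p under 0.05 and any fold, 5 of 38 members (13.2%) were called, against 21.9% of the 13745 genes tested. All 5 were lower in replicate 2, a direction called in 11.8% of all genes tested. With the TMM sizes used here the members' share is thus near the background, and other scalings gave larger shares, listed at the end. At 2-fold or more, 0 members were called, against 1.53% of all genes. Every tested member was within 1.5-fold between the libraries, as were 94.8% of all genes tested.

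The largest of the 5 calls was Timm22, with 492 counts in replicate 2 and 660 counts in replicate 1. Its log2 ratio of replicate 2 over replicate 1 was -0.32 (exact 95% interval -0.49 to -0.15, exact binomial test, Benjamini-Hochberg adjusted p = 0.00153). Tomm5 had 1251 counts in replicate 2 and 1520 counts in replicate 1, at a log2 ratio of -0.18 (-0.29 to -0.07). Tomm40l followed at -0.17, and Timm23 and Timm44 both at -0.14. Gm10273, the near copy of Timm23, moved the other way, with 1663 counts in replicate 2 and 1591 counts in replicate 1, beside 2535 and 3007 counts of Timm23 in the same order. The part of read placement between them in the Timm23 call was not tested. These sizes are small beside the range of levels among members. Over the 38 tested members the log2 ratio ran from -0.32 to 0.20 with a median of -0.06, against 0.00 over all genes tested, and 28 members were lower and 10 higher in replicate 2. With spike-in scaling, which shifts every ratio upward, the median of all genes moved to 0.24 and that of the members to 0.18. Of the 5 called members, Timm22 then stood at -0.08 and the others above 0. Timm23 (log2 ratio 0.099) and Timm44 (0.101) were then called higher in replicate 2, and Timm22, Tomm5 and Tomm40l were not called. In this scaling 25 members (65.8%) were called, all higher in replicate 2, against 57.9% of all genes tested, called in either direction. The erythroid and brown adipocyte markers given above were lower in replicate 2 as well, and their part in these differences was not tested.

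**Figure D4:**
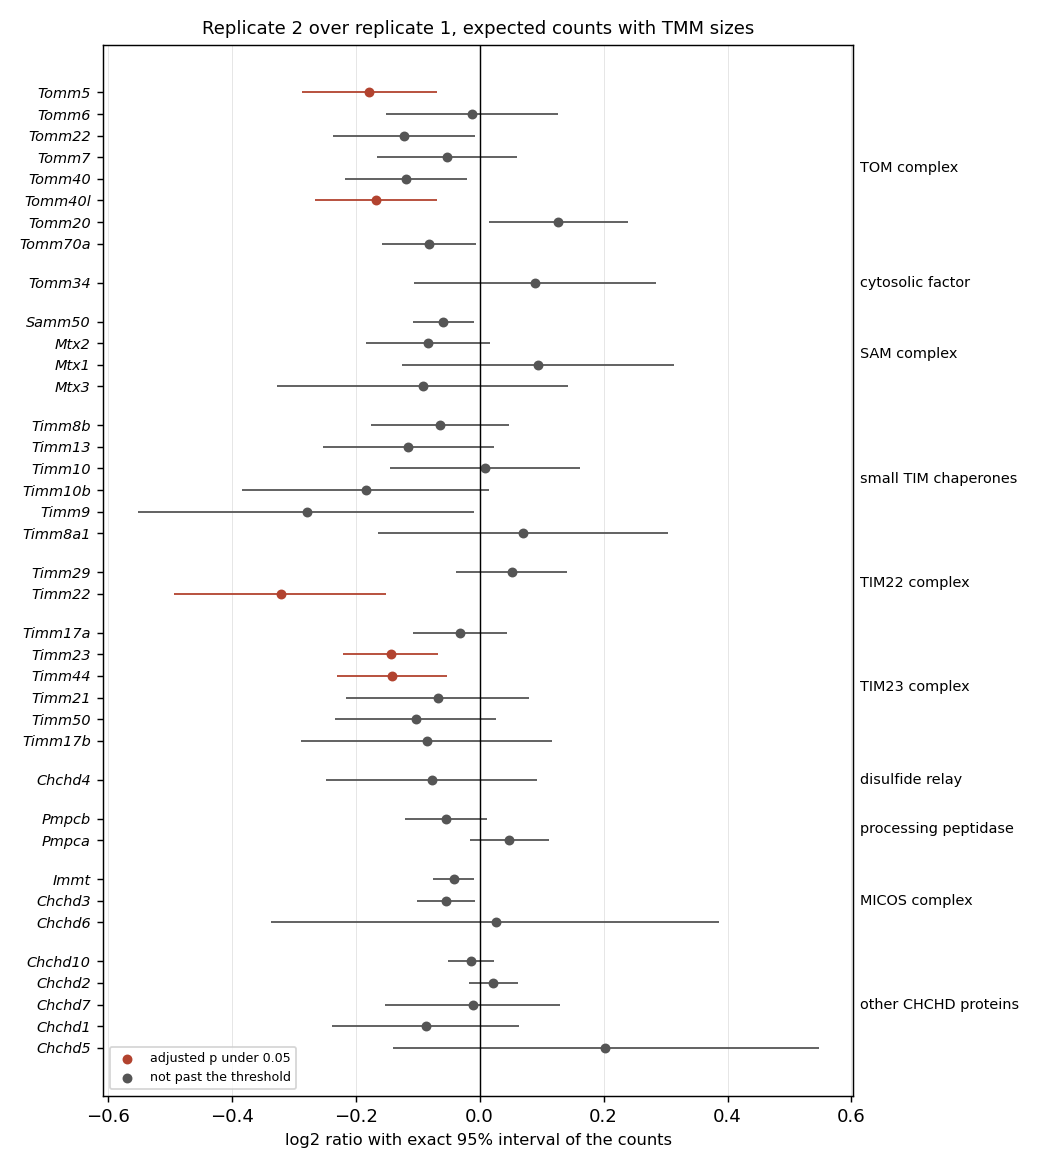
Log2 ratio of replicate 2 over replicate 1 for the 38 tested members, grouped by role, with the exact 95% interval of the counts; red marks the 5 members at an adjusted p under 0.05. All points lie between -0.32 and 0.20, and the red ones, Tomm5, Tomm40l, Timm22, Timm23 and Timm44, lie below 0.

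A chosen list of genes with other names, which covers import and also MICOS, matrix chaperones and quality control proteases, was detected in full. That is 34 of 34, against 50.4% of the nuclear genes with a coding transcript. The median of the list was 36.3 TPM, beside 37.9 TPM of the members. Of the import motor, the matrix heat shock protein Hspa9, which pulls precursors inward, averaged 229 ± 6.58 TPM. Hspd1, the chaperonin that folds imported proteins, stood at 143 ± 8.10 TPM, the TIM23-associated Romo1 at 138 ± 2.40 TPM, the MICOS subunit Apoo at 73.5 ± 0.983 TPM and the outer membrane insertase Mtch1 at 76.4 ± 5.35 TPM. The protease Lonp1 averaged 45.5 ± 1.28 TPM, the peptidase subunit Immp1l 37.0 ± 2.09 TPM, the inner membrane insertase Oxa1l 35.6 ± 0.785 TPM and Gfer 7.56 ± 0.856 TPM. The highest was the small MICOS subunit Minos1 at 263 ± 25.7 TPM, with 3.47% of its TPM in coding transcripts, and the lowest was the insertase Cox18 at 4.02 ± 1.17 TPM. Between the libraries 7 of the 34 were called lower and 0 higher in replicate 2, and 0 at 2-fold, against 11.8% of all genes tested called lower, 21.9% called at any fold and 1.53% at 2-fold.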

How the data were processed

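Total RNA-seq was available from hearts of 2 mice of 1 group. Per the deposited description files, the authors quantified the reads against mouse build mm10 with GENCODE annotation M21. The sources used here do not name the programs. Per the file headers, the first quantification has the columns RSEM writes and the second those kallisto writes. The authors' expected counts are estimated reads, not normalized, with shared reads divided between transcripts. The authors' TPM values are scaled by effective length and to a fixed sum. The percent column deposited with the transcripts, each transcript's share of its gene's TPM, was not used, and shares were computed from TPM. The estimated counts and TPM of the second quantification, as deposited per transcript, were summed per gene. The reference is of the C57BL/6J strain, and the loss of CAST reads was not measured.

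Levels are the mean TPM ± SD (n = 2). Expected counts were rounded to whole numbers and compared by an exact two-sided binomial test against TMM sizes from edgeR 4.0.16 in R 4.3.3, with Benjamini-Hochberg adjustment over genes whose counts summed to 50 or more, using scipy 1.17.1 and statsmodels 0.14.6. Log2 ratios add 0.5 to each count. P-values measure only counting error between these libraries. The comparison was also run on counts simulated with counting error alone, which cannot show how it behaves under spread between animals. Near copies were found with BLAST 2.17.0. Alternatives used DESeq2 1.42.0 size factors, other scalings, the second quantification, posterior mean TPM, other limits and each library left out. The members, the lists, the pairs and the motif letters were chosen with earlier results of these data known. Every member is named. Of the other import genes the highest, the lowest, those undetected or called at 2-fold and the first of each role were named, and pseudogenes of a member's name where they reached 1 TPM. Near copies and neighbours were chosen after their values were seen.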

Additional observations from a re-analysis of the deposited data

How the results depend on the processing

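The count of 38 detected members lay between 35 and 39 with limits of 5 and 0.1 TPM, and was 38 in the second quantification, with the posterior mean TPM and with either library left out. The median member level of 37.9 TPM became 46.9 TPM in the second quantification, 31.1 TPM with coding transcripts only, an alternative chosen after seeing the data, and 96.6 TPM when TPM was rescaled to nuclear protein-coding genes, where by construction 0 of 40 members stayed within 1.5-fold of their level. Leaving out a library gave 36.5 to 39.2 TPM. The 5 members called between libraries at any fold became 10 with DESeq2 size factors and 21 with summed mouse counts, all lower in replicate 2, and 25 with summed spike-in counts, all higher. The share of members called was then 26.3%, 55.3% and 65.8%, against 22.4%, 28.1% and 57.9% of all genes, called in either direction. Whether the members' share lay near that of all genes therefore depended on the scaling. The median log2 ratio of members was 0.18 with spike-in scaling, where the median of all genes was 0.24. The 7 calls of the second quantification (18.4% of members, against 22.2% of all genes tested) did not include Tomm5 (log2 ratio -0.08, exact binomial test, adjusted p = 0.444). No member was called at 2-fold in any of these settings. The pairs led by the first-named gene numbered 8 of 13 by expected counts and 11 of 13 with coding transcripts only, against 9. No paired analysis was possible because there is 1 group. With 2 libraries, no spread between animals could be estimated well, and the detected members with fewest counts were Chchd6 and Chchd5, at means of 131 and 144 counts.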
